A study of Homo sapiens with 16 samples.

Results

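Proteasome subunits and assembly factors were followed as 1 gene module across RNA-seq libraries of a pair of human cancer cell lines. The members were every gene of the count file whose symbol is PSMA, PSMB, PSMC, PSMD, PSME or PSMG followed by a number, together with PSMF1, which gave 48 of 26485 genes. The immunoproteasome subunits PSMB8, PSMB9 and PSMB10 were included, and PSMC3IP, antisense genes and pseudogenes were not. The rule reads symbols only, although the module itself was picked with earlier results of these data known.

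The study examined how cells respond to small interfering RNAs (siRNAs) whose seed, the short stretch near the 5′ end of the guide strand that pairs with the 3′ untranslated region (UTR) of mRNAs, is toxic to cells. Wild type PC3 (prostate cancer) and HeyA8 (ovarian cancer) cells were mock treated or transfected, with RNAiMax, with the non-targeting control siNT1, with siGGGGGC (titled siMxy in part of the labels) or with siCAG, for which the sources used here give no sequence. Total RNA was taken after 24 or 48 h, 1 library for each line, treatment and time point, 16 in all. The labels give an siRNA dose of 1 nM, whereas the study's methods name a higher one. The 24 h and 48 h libraries of a treatment served as its 2 replicates. The p-values below thus measure only the spread left between such samples once a time difference shared within the line was fitted. That spread was pooled over the treatments, and part of it may be technical. Each line is a single established line that was transfected transiently. The libraries held 27937092 to 31790209 counts assigned to genes. Levels are given as CPM, read counts scaled to library size by edgeR's TMM factors, with values listed at 24 h first and 48 h second. The cell type markers and the values per kilobase used factors from all 16 libraries. Other levels used factors from the 8 libraries of each line, so they are to be compared within a line. Because these are bulk libraries, fewer cells expressing a gene and less RNA per cell cannot be told apart.

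The 26S proteasome degrades proteins tagged with ubiquitin. Its 20S core is a barrel in which outer rings of alpha subunits (PSMA genes) enclose inner rings of beta subunits (PSMB genes), of which PSMB5, PSMB6 and PSMB7 carry the proteolytic sites. The 19S regulatory particle binds, unfolds and feeds in the substrate through a ring of ATPases (PSMC genes) and non-ATPase subunits (PSMD genes). Interferon exchanges the catalytic subunits for PSMB8, PSMB9 and PSMB10 and raises the PA28 activator (PSME1, PSME2), which favors peptides for class I antigen presentation. The transcription factor NRF1, encoded by NFE2L1, raises proteasome genes together when proteasome activity is low.

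The lines carried part of the markers of their labelled origin. HOXB13, a prostate lineage factor, was at 284 and 464 CPM in the PC3 mock libraries and at 1.34 and 1.02 in those of HeyA8, and TMPRSS2 was at 22.4 and 29.8 CPM in PC3 and at 0 in HeyA8. KLK3 and KLK2, the secreted products of luminal prostate cells, were at 0 in all 4 mock libraries. PAX8, a factor of the Müllerian lineage, was at 145 and 204 CPM in HeyA8 and at 4.02 and 2.79 in PC3. MUC16 and EMX2 were at or below 0.0363 CPM in HeyA8, and of the epithelial genes KRT19 (0.433 and 0.471 CPM), CDH1 (0.108 and 0 CPM) and EPCAM (0.831 and 1.38 CPM) were low there. The epithelial keratins KRT8 (663 and 853 CPM) and KRT18 (527 and 830 CPM) were abundant in HeyA8, above their levels in PC3 (223 and 206 CPM, and 249 and 288 CPM). Of the 7 blood cell markers examined none exceeded 0.369 CPM in a mock library.

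The libraries of 1 treatment stood apart from each other. Over all 13872 genes tested in HeyA8, the SD of the log2 difference between the 48 h and 24 h siCAG libraries was 1.09, against 0.414 to 0.639 for the other HeyA8 treatments and 0.409 to 0.661 in PC3. For the proteasome genes the same difference had a median of -0.40, and 31 of the 46 tested were lower at 48 h. Levels for siCAG in HeyA8 are therefore given at each time, and the calls of members also with either library left out.

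The sequences that bear on the siRNAs are the stretches of proteasome 3′ UTRs that match their seeds. GCCCCC, the complement of the seed GGGGGC, was present in the canonical 3′ UTR of 7 of the 48 members (14.58%), against 28.12% of 18085 protein-coding genes. Those genes had an annotated coding sequence, and a 3′ UTR was not required. The members have short 3′ UTRs, with a median of 351.5 nt against 1071 nt over those genes. PSMD13 and PSMF1 held 2 matches each, and PSMB2, PSMD8, PSMD9, PSMD11 and PSMG3 held 1 each. With the longest annotated 3′ UTR of each gene, PSMG4 was added, giving 16.67% of members against 29.9% of genes. CGACTA, the complement of the siNT1 seed, was found in 2.42% of genes and in 1 member, PSMB2. PSMB2 was thus the only member with a match to both seeds. The matches shown, with the seed match in capitals (GRCh38, GENCODE annotation), are those of PSMB2, at chr1:35602361-35602366 and at chr1:35601726-35601731 on the minus strand, and, for comparison, that of PSMD11 at chr17:32481477-32481482 on the plus strand.
PSMB2, siGGGGGC seed match: atacagacacatGCCCCCtttaaatttttt
PSMB2, siNT1 seed match: ccatttggtctcCGACTAagataaacccta
PSMD11, siGGGGGC seed match: tgtgggcccttaGCCCCCaaggggcctgct

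Promoter stretches are shown for members whose levels are described below. The antioxidant response element core, TGACNNNGC on either strand, to which NRF1-type factors can bind, was present within 250 bases before to 50 after the start of 13 of the 42 members with a RefSeq promoter (30.95%), against 13.56% of 27305 promoters. The core of the interferon-stimulated response element, searched on both strands, was present in 6 of these 42 (14.29%) against 3.65%. PSMB3 (chr17:38752627-38752655, plus strand) and PSMD3 (chr17:39980760-39980788, plus strand) held the former, and PSME2 (chr14:24146619-24146648, minus strand) and PSMB10 (chr16:67936852-67936881, minus strand) held the latter, shown in capitals (RefSeq, GRCh38.p14). The promoter of PSME2 also holds the antioxidant response element core, as do those of PSMB9, PSMC4, PSMD1, PSMD5, PSMD9, PSMD12, PSME1, PSME4, PSMG1 and PSMG2. Of these, PSMD5, PSME4, PSMG1 and PSMG2 were not called with siGGGGGC in PC3, and PSMA6, PSMB2 and PSMC1, which were, lack it. The interferon-stimulated core was also in PSMA4, PSMB4, PSME1 and PSMG4, and not in PSMB8. Any link between a match and a level was not tested. A match describes the letters only and is not a measured binding site.
PSMB3, antioxidant response element core: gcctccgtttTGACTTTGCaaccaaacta
PSMD3, antioxidant response element core: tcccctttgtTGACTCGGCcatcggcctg
PSME2, interferon-stimulated response element core: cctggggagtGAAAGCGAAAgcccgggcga
PSMB10, interferon-stimulated response element core: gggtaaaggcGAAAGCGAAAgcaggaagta

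The proteasome genes were broadly expressed in both lines. They took 0.72% to 0.997% of all counts in PC3 libraries and 0.66% to 0.914% in HeyA8 libraries. PSMA8, the alpha subunit of testis, had 0 counts in all 16 libraries, which allows a level of up to 0.107 CPM in the shallowest of them (3 counts, counting error only). PSMB11, the beta subunit of thymic epithelium, had at most 2 counts in a library. These 2 did not pass the filter on low counts, so 46 members were tested in each line.

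On the scale of CPM per kilobase of canonical transcript, the mock libraries gave a similar order in both lines at the top. PSMD2, a 19S scaffold that receives ubiquitin shuttles, led in both, at 342 and 284 CPM per kilobase in PC3 and at 565 and 610 in HeyA8. PSMA7, a subunit of the alpha ring, came second with 284 and 294 in PC3 and 345 and 395 in HeyA8, and its values overlapped those of PSMD2 in PC3 and not in HeyA8. PSMB4, a subunit of the beta ring, came next, at 241 and 242 in PC3 and at 234 and 278 in HeyA8. In PC3 PSMA3 followed closely with 235 and 242, which overlapped PSMB4. Among the PSMC and PSMD genes PSMD5 was lowest in PC3, at 17.1 and 16.5, and PSMD9 in HeyA8, at 26.0 and 26.6, both chaperones of base assembly. The immunoproteasome subunit PSMB9 was lowest of the tested members, at 1.27 and 0.781 in PC3 and at 0.533 and 0.463 in HeyA8. The order depends on the length used. The deposited file gives PSMD2 a length of 8327 bases, against 2913 for its canonical transcript, and PSMA7 one of 1032 against 962. With the deposited lengths PSMD2 would lie below PSMA7 in both lines.

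In PC3 cells transfected with siGGGGGC, 9 proteasome genes rose against siNT1 and none fell. They came from every main part of the particle, namely PSMB1, PSMB2 and PSMB3 of the beta ring, PSMA6 and PSMA7 of the alpha ring, the ATPases PSMC1 and PSMC4, and the non-ATPases PSMD1 and PSMD3. The rises lay between 0.58 and 0.91 on the log2 scale. Calls were made with edgeR's quasi-likelihood test at an adjusted p under 0.05 over all 15136 genes tested. Among all genes 3.67% were called higher and 6% were called lower, so that 9 of 46 members called higher and 0 called lower stood against a background in which falls were more frequent than rises. The median log2 fold change of the 46 members was 0.39, against 0.00290 over all genes tested, and 41 members lay above 0. Both siGGGGGC libraries exceeded both siNT1 libraries for 32 members, and for 1 member both lay below, against 28.5% and 28.7% of all genes. The summed level of the members was 9231 and 10002 CPM with siGGGGGC, 7341 and 7246 CPM with siNT1, 7550 and 7209 CPM in mock libraries, and 7667 and 7727 CPM with siCAG.

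**Figure D1:**
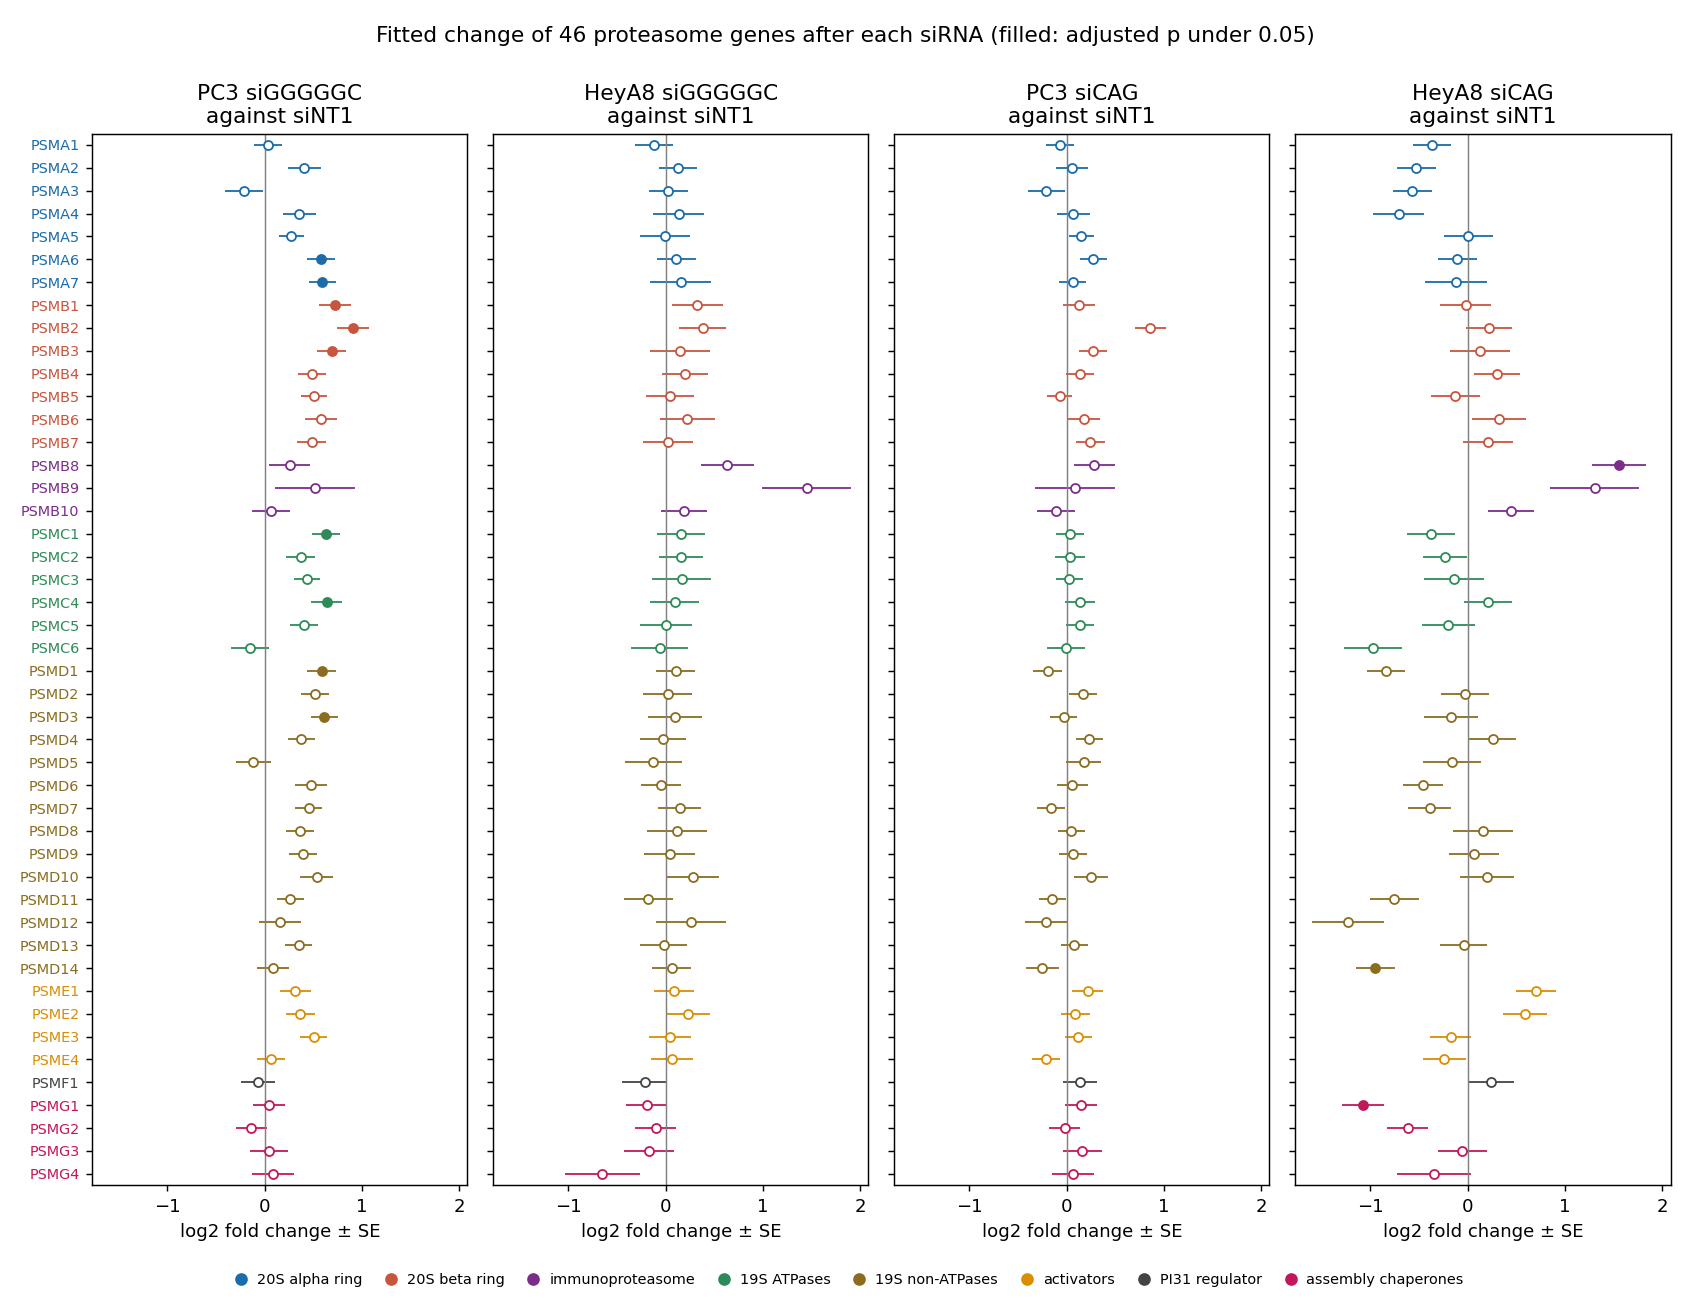
Log2 fold change against siNT1 (x axis, ± SE) of each of the 46 tested proteasome genes, grouped by their part in the particle, for siGGGGGC and siCAG in PC3 and HeyA8 cells, from 2 libraries a treatment, with filled points at an adjusted p under 0.05. In PC3 cells with siGGGGGC, 41 of 46 points lie above 0, with PSMB2 farthest at 0.91.

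All 7 tested subunits of the beta ring had an unadjusted p under 0.05 in this comparison, and the ring's median log2 fold change was 0.58. PSMB2, which bears no catalytic site, was at 139 and 111 CPM with siNT1, 224 and 245 CPM with siGGGGGC, and 184 and 185 CPM in mock libraries. Its rise against siNT1 was 0.91 ± 0.16 (log2, SE, n = 2 and 2, adjusted p = 0.0229). The siNT1 libraries were the lowest of all 8 PC3 libraries for this gene, and against mock the change of 0.34 did not pass the test (adjusted p = 0.159). PSMB1 went from 111 and 114 CPM with siNT1 to 159 and 213 CPM, by 0.72 ± 0.16 (adjusted p = 0.0377). PSMB3 went from 75.7 and 82.5 CPM to 113 and 144 CPM, by 0.69 ± 0.15 (adjusted p = 0.0321). For these structural subunits no siGGGGGC library overlapped a siNT1 or a mock library.

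The catalytic subunits moved by less and did not pass the adjusted threshold in edgeR's test against siNT1. DESeq2 called PSMB5 and PSMB6 higher, against 1135 of 15136 genes. With mock as the control PSMB6 and PSMB7 were called higher, against 1337 of 15136 genes. PSMB5, with chymotrypsin-like activity, was at 162 and 184 CPM with siNT1, 188 and 198 CPM in mock, 237 and 256 CPM with siGGGGGC, and 156 and 172 CPM with siCAG. PSMB6, with caspase-like activity, was at 98.6 and 114 CPM with siNT1, 105 and 106 CPM in mock, 130 and 192 CPM with siGGGGGC, and 106 and 136 CPM with siCAG. PSMB7, with trypsin-like activity, was at 90.3 and 102 CPM with siNT1, 93.1 and 87.7 CPM in mock, 125 and 144 CPM with siGGGGGC, and 103 and 125 CPM with siCAG. The siGGGGGC libraries exceeded the control libraries in all these comparisons without overlap. The log2 fold changes were 0.51 (PSMB5, adjusted p = 0.051), 0.58 (PSMB6, adjusted p = 0.0656) and 0.48 (PSMB7, adjusted p = 0.0783) in edgeR's quasi-likelihood test. PSMB4 (0.49, adjusted p = 0.0684) was similar.

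Of the alpha ring, PSMA7 was at 331 and 308 CPM with siNT1 and at 451 and 514 CPM with siGGGGGC, a rise of 0.59 ± 0.14 (adjusted p = 0.0411). PSMA6 was at 227 and 216 CPM with siNT1 and at 312 and 352 CPM with siGGGGGC, a rise of 0.58 ± 0.14 (adjusted p = 0.0455). The ring was not uniform. PSMA1, at 208 and 174 CPM with siNT1 and 197 and 193 CPM with siGGGGGC, had a log2 fold change of 0.04, and PSMA3, at 265 and 205 CPM and then 198 and 203 CPM, had one of -0.21. PSMA3 overlaps an antisense gene in the annotation, and PSMB7, PSMC5, PSMD6, PSME1 and PSMG2 each overlap a neighboring gene. Whether the counting used strand is not given in the sources used here, so these counts may hold reads of the neighbor.

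In the 19S particle, PSMC1 was at 121 and 127 CPM with siNT1 and 173 and 214 CPM with siGGGGGC (0.63 ± 0.14, adjusted p = 0.0385). PSMC4 was at 119 CPM in both siNT1 libraries and at 168 and 204 CPM with siGGGGGC (0.64 ± 0.16, adjusted p = 0.0451). These ATPases belong to the ring that unfolds substrates, in which 5 of 6 members had an unadjusted p under 0.05, the exception being PSMC6 (-0.15, adjusted p = 0.628). PSMD3 was at 150 and 151 CPM with siNT1 and 214 and 247 CPM with siGGGGGC (0.61 ± 0.14, adjusted p = 0.0382). PSMD1, a large scaffold of the base, was at 302 and 292 CPM with siNT1 and 415 and 476 CPM with siGGGGGC (0.59 ± 0.15, adjusted p = 0.0497). PSMD2 was at 1080 and 1097 CPM with siNT1 and at 1523 and 1598 CPM with siGGGGGC, and its log2 fold change of 0.52 had an adjusted p of 0.0602. PSMD14, the deubiquitinase of the lid, was at 181 and 168 CPM and then 174 and 196 CPM, and its log2 fold change of 0.09 was smaller than its SE of 0.16. PSMD5, a chaperone of base assembly, had one of -0.11.

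No gene that builds or regulates the particle without being part of its core or 19S cap was called, and these groups differed in size of change. The 4 chaperones of 20S assembly, PSMG1 to PSMG4, had a median log2 fold change of 0.05 and none had an unadjusted p under 0.05. Their summed level was 220.3 and 154.5 CPM with siGGGGGC and 196.8 and 180 CPM with siNT1, so above the control at 24 h and below it at 48 h. PSMF1, which encodes the inhibitor PI31, had a log2 fold change of -0.07 (adjusted p = 0.806). It was at 187 and 155 CPM with siGGGGGC and at 167 and 193 CPM with siNT1, likewise on opposite sides at the times. The 4 activators had a median of 0.34, all lay above 0 and 2 had an unadjusted p under 0.05. Of these, PSME3, which encodes the nuclear PA28 gamma subunit, was at 168 and 157 CPM with siNT1 and 251 and 212 CPM with siGGGGGC (0.51, adjusted p = 0.0569). PSME2 was at 78.6 and 87.7 CPM and then 104 and 110 CPM (0.36, adjusted p = 0.14), and PSME1 at 72.0 and 70.5 CPM and then 92.0 and 85.1 CPM (0.31, adjusted p = 0.215), both without overlap, while PSME4, which encodes PA200, had a log2 fold change of 0.07. Counted over all 46 tested members, 27 had an unadjusted p under 0.05, against 4864 of 15136 genes.

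**Figure D2:**
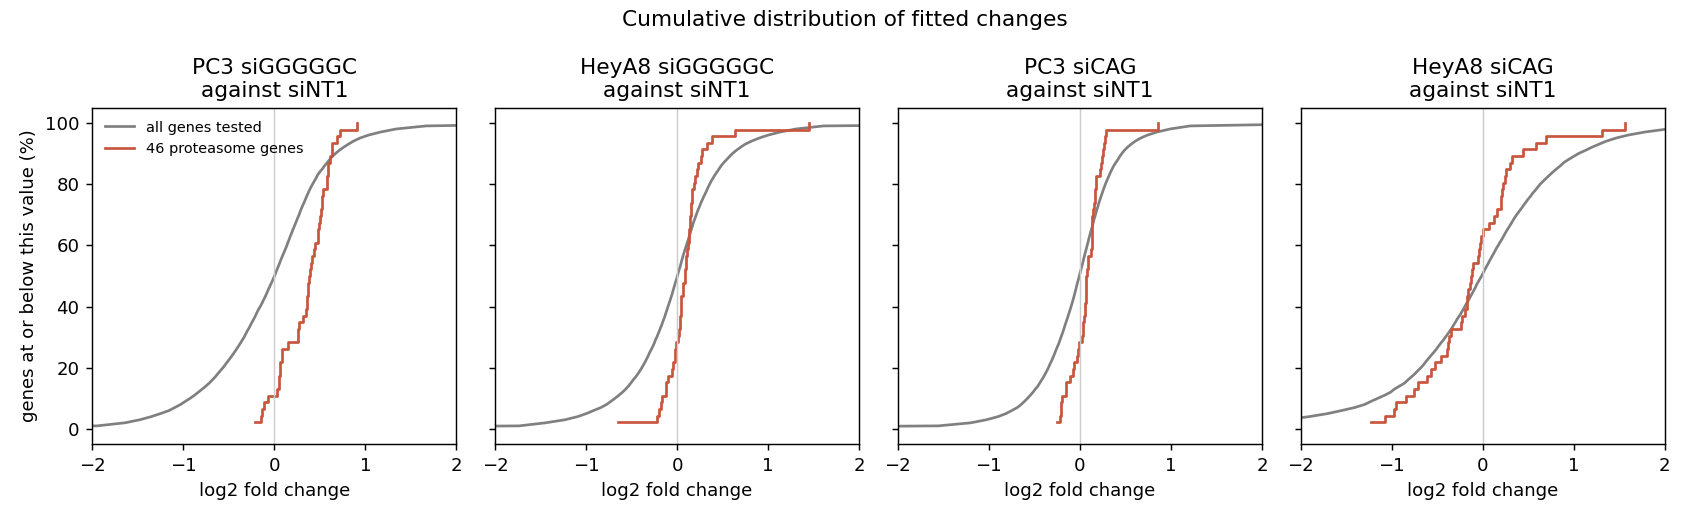
Cumulative share of genes (y axis, percent) at or below each log2 fold change (x axis) against siNT1, for all genes tested (gray) and for the 46 proteasome genes (red), in the comparisons of siGGGGGC and siCAG in each line. With siGGGGGC in PC3 the red curve lies to the right of the gray one (medians 0.39 and 0.00290), and in HeyA8 the curves lie close to each other (medians 0.09 and 0.00400).

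The number of calls depended on which libraries entered the test. Without the siGGGGGC 24 h library 18 members were called higher, against 1591 of 15723 genes, and without the siGGGGGC 48 h library, or without either siNT1 library, none was. Without the siGGGGGC 48 h library 81 genes were called higher and 536 lower of 15454. When either siNT1 library was left out, 0 genes were called in the whole table. A fit without a term for time called 1 member (PSMB2) higher, against 177 genes higher and 448 lower of 15136. A fit of all 16 libraries called 0 members, against 93 genes higher and 240 lower of 15887. DESeq2 called 14 members higher, against 1135 of 15136 genes. With the mock libraries as the control 13 members were called higher and none lower, against 1337 and 1863 of 15136 genes. Neither PSMB2 nor PSMD1 was among them. RLE scaling also lost the call of PSMD1, with 8 members called higher against 552 of 15136 genes. The median log2 fold change of the members lay between 0.33 and 0.43 in these settings.

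The members with GCCCCC in the 3′ UTR had a slightly lower median than the others in both lines, which was not tested. Their median log2 fold change with siGGGGGC in PC3 was 0.35 (7 members, 6 above 0), against 0.41 for the 39 tested members without it (35 above 0). Over all tested protein-coding genes with an annotated coding sequence, the median was -0.11 for the 3861 with GCCCCC and 0.05 for the 8844 without. PSMB2, whose match is printed above, was the member with the largest rise. In HeyA8 the corresponding medians were -0.02 (3 of 7 above 0) and 0.09 (30 of 39 above 0) for members and -0.11 and 0.04 for all genes.

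In HeyA8 cells transfected with siGGGGGC, no proteasome gene passed the test against siNT1. Among all 13872 genes tested 0% were called in either direction. Fits of fewer libraries did call genes, 347 lower and 130 higher without the siCAG libraries and 769 lower and 411 higher with the 4 libraries of both conditions, and 0 members in each. One member had an unadjusted p under 0.05 and DESeq2 called 0 members, while DESeq2 called 263 genes lower and 55 higher in the whole table. Both siGGGGGC libraries exceeded both siNT1 libraries for 13 members, against 25.4% of all genes, and both lay below for 6 members, against 25.4% as well. The median log2 fold change of members was 0.09, against 0.00400 over all genes, with 33 of 46 above 0. The summed level was 8480 and 9049 CPM with siGGGGGC and 8115 and 8573 CPM with siNT1.

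The member with the smallest p in this comparison was PSMB9, an immunoproteasome subunit. It was at 0.82 and 0.461 CPM with siNT1, 0.491 and 0.432 CPM in mock, and 1.46 and 2.07 CPM with siGGGGGC, and these values rest on only 13 to 64 counts a library. Its log2 fold change was 1.45 ± 0.46 (adjusted p = 0.405, edgeR's quasi-likelihood test). PSMB8 was at 9.43 and 7.63 CPM with siNT1 and at 11.3 and 15.5 CPM with siGGGGGC (0.63, adjusted p = 0.519). PSMG4, a 20S assembly chaperone, was at 11.4 and 10.6 CPM and then 9.51 and 5.15 CPM (-0.65, adjusted p = 0.645). PSMB5 was at 172 and 194 CPM with siNT1 and 188 and 189 CPM with siGGGGGC, PSMB6 at 128 and 159 CPM and then 138 and 199 CPM, and PSMB7 at 183 and 189 CPM and then 179 and 200 CPM. The libraries of the pair of treatments overlapped for all 3 catalytic subunits.

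Whether the siGGGGGC response of the proteasome differed between the lines was tested in a fit of all 16 libraries. No member passed, among all genes 0% were called, and 0 members had an unadjusted p under 0.05. DESeq2 called no member either. The median of the members' differences, PC3 minus HeyA8, was 0.28 on the log2 scale, against 0.00710 over all 15887 genes tested. The members with the smallest p were PSMD6 (0.52, 95% interval -0.03 to 1.06, adjusted p = 0.78), PSMA6 (0.46, -0.06 to 0.99, adjusted p = 0.8) and PSMD1 (0.48, -0.07 to 1.02, adjusted p = 0.801). These p-values come from the model fitted across all genes. The data thus give 9 calls in one line and 0 in the other, and a difference between lines that was not resolved.

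With siCAG in PC3 cells no member passed the test against siNT1, against 0.0396% of genes called higher and 1.16% called lower. PSMB2 alone of the members had an unadjusted p under 0.05, against 2037 of 15136 genes. DESeq2 called PSMB2 alone, against 114 genes higher and 458 lower of 15136. PSMB2 was at 215 and 239 CPM with siCAG and at 139 and 111 CPM with siNT1, a log2 fold change of 0.86 ± 0.16 (adjusted p = 0.0599). Against mock its log2 fold change was 0.30 (adjusted p = 0.341). The other members with the smallest p were PSMA6 (0.28, adjusted p = 0.446) and PSMB3 (0.27, adjusted p = 0.46). The median of members was 0.07, with 15 members above both siNT1 libraries (22.1% of all genes) and 6 below both (22.8% of all genes).

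With siCAG in HeyA8 cells, the immunoproteasome subunit PSMB8 rose and the chaperone PSMG1 and the deubiquitinase PSMD14 fell. Among all genes 2.88% were called higher and 4.93% lower in this comparison, so 1 and 2 of 46 members did not exceed the background. PSMB8 was at 9.43 and 7.63 CPM with siNT1, 10.7 and 10.5 CPM in mock and 22.5 and 28.2 CPM with siCAG, a rise of 1.56 ± 0.28 (log2, SE, n = 2 and 2, adjusted p = 0.0282). PSMG1, which acts with PSMG2 in assembling the alpha ring, was at 72.3 and 72.8 CPM with siNT1, 75.7 and 80.8 CPM in mock, and 37.2 and 31.8 CPM with siCAG, a fall with a log2 fold change of -1.08 ± 0.21 (adjusted p = 0.0365). PSMD14 was at 196 and 222 CPM with siNT1, 196 and 219 CPM in mock, and 102 and 114 CPM with siCAG (-0.95 ± 0.20, adjusted p = 0.0402). For these 3 genes the siCAG libraries of both times lay apart from the control libraries on the same side. These 3 adjusted p-values ranged up to 0.331, 0.362 and 0.386 across the alternative settings, in the order PSMB8, PSMG1, PSMD14, and no direction changed.

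**Figure D3:**
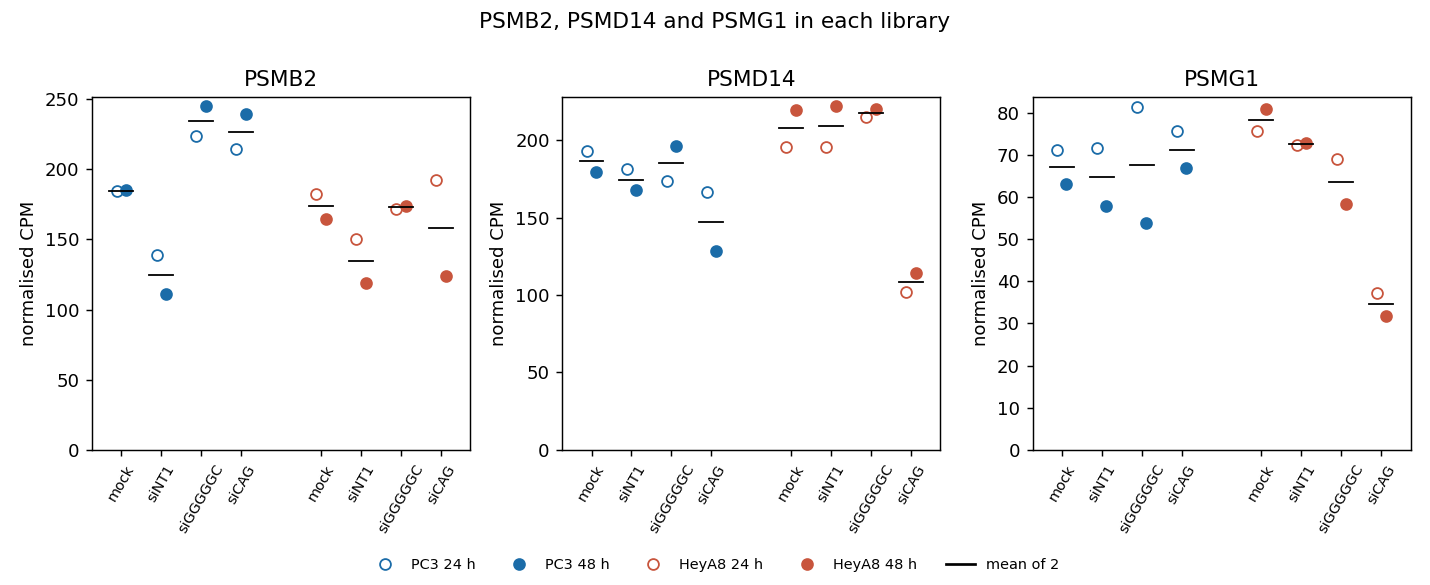
Normalized CPM (y axis) of PSMB2, PSMD14 and PSMG1 in each library, by treatment, with 24 h as open points, 48 h as filled points and a line at the mean of 2, in PC3 and in HeyA8. PSMG1 sits at 37.2 and 31.8 CPM with siCAG in HeyA8 and between 58.4 and 80.8 CPM in that line's other libraries, and PSMB2 is lowest with siNT1 in PC3 at 139 and 111 CPM.

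Other members were divided with siCAG in HeyA8. PSMD12, a lid subunit, was at 146 and 142 CPM with siNT1 and at 38.1 and 89.9 CPM with siCAG (-1.23, adjusted p = 0.0844), and PSMC6, an ATPase, was at 160 and 156 CPM and then 59.5 and 103 CPM (-0.97, adjusted p = 0.0882). PSMD1 was at 331 and 328 CPM and then 205 and 165 CPM (-0.84, adjusted p = 0.0511). These genes were low in both siCAG libraries but by unequal amounts. The alpha ring had a median log2 fold change of -0.37 and the beta ring one of 0.21, against -0.01 over all genes tested, and neither ring held a called gene. The summed alpha ring was at 1215 and 1033 CPM with siCAG and at 1347 and 1368 CPM with siNT1, low at both times. The summed beta ring was at 1566 CPM at 24 h and 1091 CPM at 48 h with siCAG, against 1163 and 1229 CPM with siNT1, so it was above the control at 24 h and below it at 48 h. Over the 46 tested members the median was -0.12, with 14 at an unadjusted p under 0.05, a share close to that of all genes (4094 of 13872). Both siCAG libraries lay above both siNT1 libraries for 6 members (28.2% of all genes) and below for 16 (27.4% of all genes).

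Of the immunoproteasome and PA28 genes PSMB8 alone passed edgeR's test on the 8 HeyA8 libraries with siCAG. DESeq2 also called PSME1 higher, against 1150 of 13872 genes. The fit of all 16 libraries also called PSME1 and PSME2 higher, against 2028 of 15887 genes. PSMB9 was at 1.48 and 1.72 CPM with siCAG, against 0.82 and 0.461 CPM with siNT1 (1.31, adjusted p = 0.119). PSMB10 was at 16.9 and 14.9 CPM, against 13.6 and 9.93 CPM (0.44, adjusted p = 0.26). PSME1 was at 87.7 and 87.6 CPM with siCAG and 54.5 and 53.4 CPM with siNT1 (0.70, adjusted p = 0.0817), and PSME2, whose promoter match is printed above, was at 91.5 and 81.7 CPM and 58.2 and 57.2 CPM (0.59, adjusted p = 0.14). The remaining PA28 gene, PSME3, was at 360 and 244 CPM with siCAG and 340 and 331 CPM with siNT1 (-0.17, adjusted p = 0.623). PSMB8 and PSMB9 overlap on opposite strands of chromosome 6, so their counts may not be fully separate.

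Because the siCAG libraries of HeyA8 stood apart from each other, the test was repeated without each of them. Without the 24 h library 14 members were called lower and 2 higher, against 2498 and 2022 of 14332 genes. Without the 48 h library 11 were called lower and 10 higher, against 3119 and 1571 of 14260 genes. PSMB8, PSMG1 and PSMD14 were called in the same direction in each of these. Without the siNT1 24 h library no member was called, against 53 genes lower and 1 higher of 14375, and without the siNT1 48 h library none was, against 42 lower and 0 higher of 14418. The median of members was -0.39 without the 24 h library and 0.17 without the 48 h library, so the direction of the module as a whole was not the same at both times. The summed level was 8710 CPM at 24 h and 6495 CPM at 48 h with siCAG, against 8115 and 8573 CPM with siNT1. When all 16 libraries were scaled together the median of all genes in this comparison shifted to 0.12, that of the members was 0.02, and 3 members were called higher and 5 lower, against 12.8% and 8.19% of all genes.

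**Figure D4:**
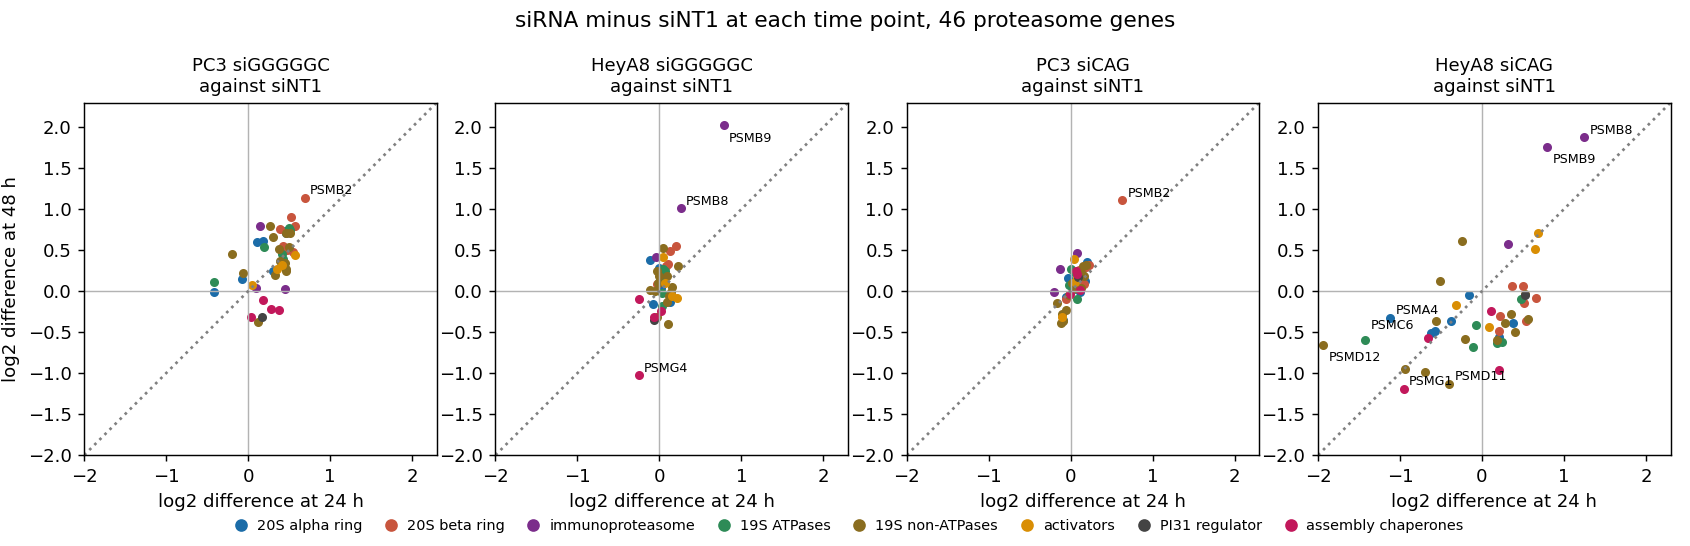
Log2 difference from siNT1 at 24 h (x axis) and at 48 h (y axis) for each tested proteasome gene, with siGGGGGC and siCAG in each line, colored by part of the particle, with a dotted line of equal differences. PSMB2 is at 0.69 and 1.14 with siGGGGGC in PC3, and PSMD12 at -1.94 and -0.66 with siCAG in HeyA8.

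The difference between lines in the siCAG response was also tested. No member passed, against 0.636% of all genes, and 6 members had an unadjusted p under 0.05, against 2327 of 15887 genes. DESeq2 called PSMG1 higher and PSMB8 lower, against 339 genes higher and 332 lower of 15887. PSMG1 differed by 1.11 (95% interval 0.51 to 1.71, adjusted p = 0.106), PC3 minus HeyA8, and PSMB8 by -1.38 (-2.17 to -0.59, adjusted p = 0.12). PSMC6 followed with 0.87 (adjusted p = 0.287). In PC3 itself PSMG1 was at 71.6 and 57.9 CPM with siNT1 and 75.7 and 66.8 CPM with siCAG. The median over all genes of this difference was -0.13, so single values are to be read against that shift.

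The controls themselves were compared, because every siRNA comparison above uses siNT1. In PC3 no member differed between siNT1 and mock at an adjusted p under 0.05, against 0.231% of all genes. PSMB2 alone of the members had an unadjusted p under 0.05, against 1364 of 15136 genes. DESeq2 called no member, against 93 genes lower and 175 higher of 15136. PSMB2 had a log2 fold change of -0.56 ± 0.16 (adjusted p = 0.312), followed by PSMB10 (0.43, adjusted p = 0.576) and PSMB9 (0.85, adjusted p = 0.618). In HeyA8 no member was called, against 0% of all genes, 0 members had an unadjusted p under 0.05, and DESeq2 called none. PSMB2 was again the member with the smallest p, at 150 and 119 CPM with siNT1 and 182 and 165 CPM in mock (-0.38, adjusted p = 1). The fit of these 4 libraries alone called PSMB2 lower, against 671 genes lower and 903 higher of 13298. PSMB2 was the lowest of the 46 members in both lines, at rank 1108 of 15136 genes in PC3 and 1388 of 13872 in HeyA8. In both lines the siNT1 libraries lay below the mock libraries for PSMB2, the member that holds CGACTA, and the part of that match in the result was not tested. Over all genes with CGACTA the median log2 fold change was -0.08 in PC3 (346 genes) and -0.10 in HeyA8 (326 genes), against -0.00490 (12359 genes) and -6e-04 (11486 genes) for genes without it.

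**Figure D5:**
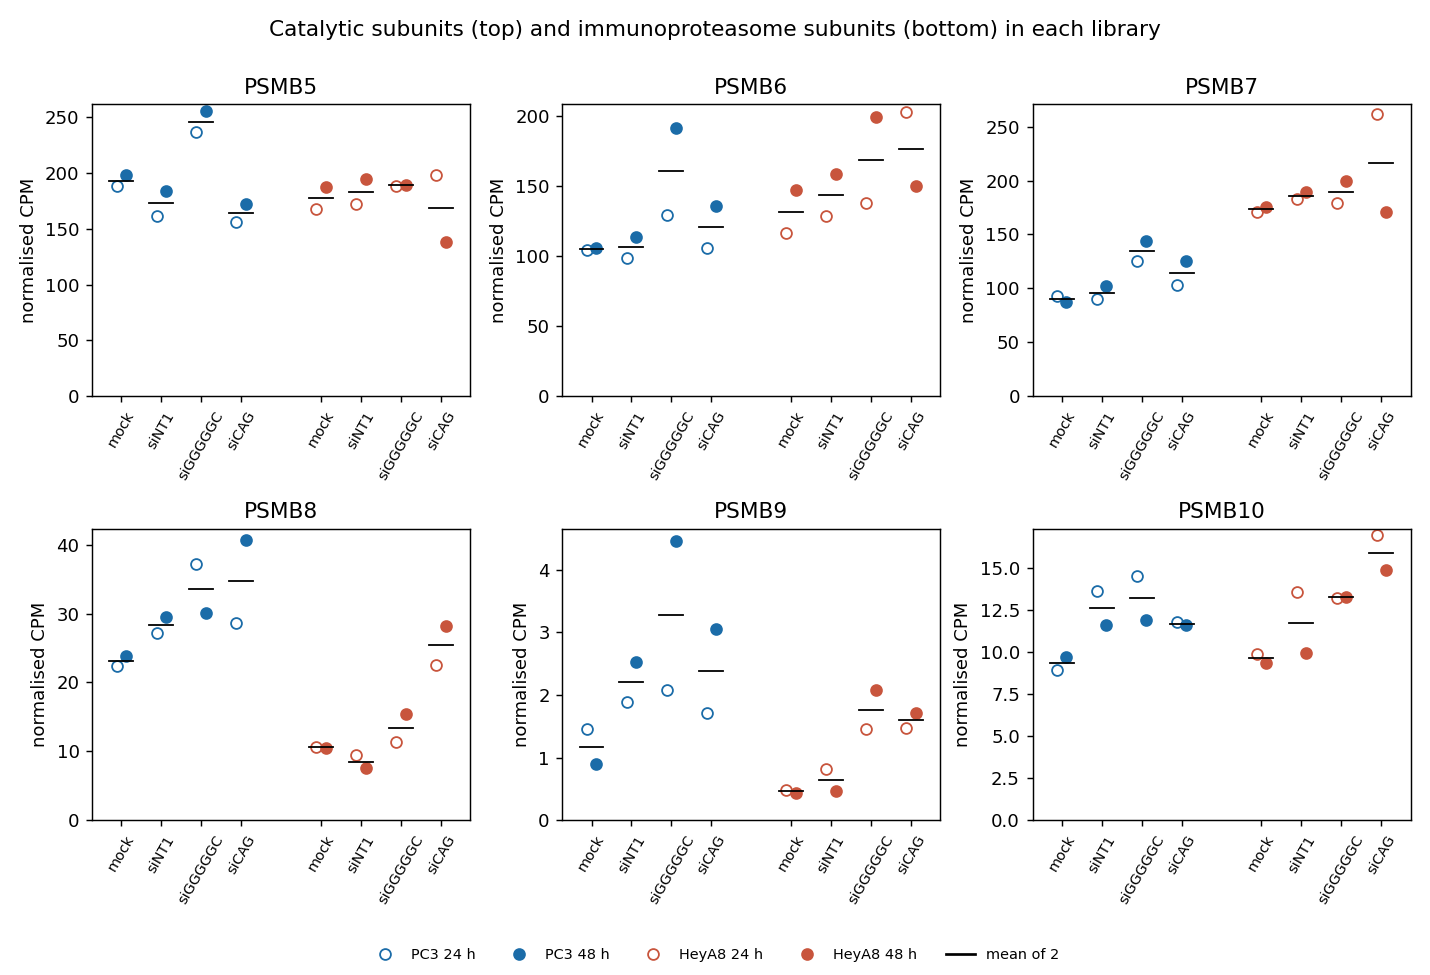
Normalized CPM (y axis, from 0) of the catalytic subunits PSMB5, PSMB6 and PSMB7 and of the immunoproteasome subunits PSMB8, PSMB9 and PSMB10 in each library, by treatment and line, with both time points shown. On each line's own scaling, PSMB8 is between 22.4 and 40.7 CPM in PC3 and between 7.63 and 28.2 CPM in HeyA8.

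In PC3 cells the immunoproteasome subunits varied without a call. PSMB8 was at 22.4 and 23.9 CPM in mock, 27.1 and 29.4 CPM with siNT1, 37.2 and 30.1 CPM with siGGGGGC, and 28.6 and 40.7 CPM with siCAG. PSMB9 was at 1.46 and 0.898 CPM in mock, 1.89 and 2.53 CPM with siNT1, 2.09 and 4.45 CPM with siGGGGGC, and 1.71 and 3.06 CPM with siCAG. PSMB10 was at 8.96 and 9.71 CPM in mock, 13.6 and 11.6 CPM with siNT1, 14.5 and 11.9 CPM with siGGGGGC, and 11.8 and 11.6 CPM with siCAG. All 3 were lowest in mock libraries, and the libraries of the 3 siRNAs overlapped each other for PSMB9. For PSMB10 the siNT1 libraries overlapped those of both other siRNAs, and both siCAG libraries lay below both siGGGGGC libraries. In HeyA8 the 24 h and 48 h levels of the remaining treatments were 9.89 and 9.34 CPM (mock) and 13.2 and 13.3 CPM (siGGGGGC) for PSMB10. The catalytic subunits in HeyA8 were at 168 and 187 CPM (PSMB5), 116 and 147 CPM (PSMB6) and 171 and 176 CPM (PSMB7) in mock. With siCAG they were at 199 and 139 CPM, 203 and 150 CPM, and 262 and 170 CPM, so that each was higher at 24 h than at 48 h.

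Part of the proteasome genes differed between the untreated lines. In mock PC3 against mock HeyA8 cells 13 members were lower and 3 higher, against 22% and 29% of all genes. Calls of both directions together were thus not more frequent among members than among all genes. The median log2 fold change of members was -0.34, while that of all genes was 0.10. PSMD6, a lid subunit, was at 62.9 and 68.6 CPM in PC3 and 150 and 139 CPM in HeyA8 on each line's own scaling, and its log2 fold change over the 16 libraries was -1.45 ± 0.18 (adjusted p = 6.33e-05). PSMD5 was -1.34 ± 0.25 (adjusted p = 0.00109), PSME3 was -1.29 ± 0.19 (adjusted p = 0.000239), PSMB7 was -1.25 ± 0.23 (adjusted p = 0.00102) and PSMC1 was -1.14 ± 0.22 (adjusted p = 0.00118). The genes higher in PC3 were PSMD10, which encodes the assembly chaperone and oncoprotein gankyrin, by 0.85 ± 0.22 (adjusted p = 0.00852), PSMB8 by 0.81 ± 0.25 (adjusted p = 0.0202) and PSMA3 by 0.51 ± 0.19 (adjusted p = 0.048). The mock libraries of the lines did not overlap for any of these 8. Leaving out 1 mock library gave fewer calls, both among members and among all genes. The 4 mock libraries alone gave 31 calls of members (25 lower, 6 higher), against 5377 lower and 5731 higher of 14827 genes. Over 11 alternative settings the call of PSMA3 was lost in 8 (adjusted p up to 0.344), that of PSMB8 in 4 and that of PSMD10 in 2.

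No member changed between 24 h and 48 h beyond the threshold. In PC3, against 0.0264% of all genes, 0 members were called, 3 had an unadjusted p under 0.05 and DESeq2 called none, and the smallest p-values were those of PSMD10 (0.34, adjusted p = 0.333), PSMG1 (-0.31, adjusted p = 0.343) and PSMB6 (0.29, adjusted p = 0.365). In HeyA8, against 0% of all genes, 0 were called by edgeR or DESeq2 and 1 had an unadjusted p under 0.05, with PSMD10 (0.49, adjusted p = 0.724), PSMG4 (-0.54, adjusted p = 0.724) and PSMG3 (-0.33, adjusted p = 0.724) first. PSMD10 was the member with the smallest p in both lines.

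Other genes of the pathway were taken from 4 lists. Of 9 associated subunits and regulators, ADRM1, a ubiquitin receptor of the 19S base, rose with siGGGGGC in PC3, from 182 CPM in both siNT1 libraries to 290 and 365 CPM (0.84 ± 0.15, adjusted p = 0.0219), and the other 8 were not called, where 3.67% of all genes were called higher and 6% lower. USP14, a deubiquitinase that docks on PSMD2, was the 1 gene of that list called with siCAG in HeyA8, where it was at 211 CPM in both siNT1 libraries and at 47.3 and 96.4 CPM with siCAG (-1.60 ± 0.33, adjusted p = 0.0382), where 4.93% of all genes were called lower and 2.88% higher. Of the 5 genes of the NRF1 pathway 1 was called with siGGGGGC in PC3, VCP, the segregase that extracts ubiquitinated proteins, which rose from 463 and 466 CPM to 695 and 771 CPM (0.66 ± 0.14, adjusted p = 0.0335). NFE2L1 itself was at 379 and 441 CPM with siNT1 and at 441 and 415 CPM with siGGGGGC, where the treatments overlapped. None of the 5 was called with siCAG in HeyA8.

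Of 12 genes of class I antigen presentation and interferon response, 3 rose with siGGGGGC in PC3 and none fell, where 3.67% and 6% of all genes were called. HLA-B was at 45.3 and 87.4 CPM against 30.3 and 35.1 CPM with siNT1 (0.97 ± 0.24, adjusted p = 0.0464) and HLA-C at 73.6 and 92.0 CPM against 52.4 and 56.5 CPM (0.60 ± 0.15, adjusted p = 0.0465). ERAP1 was at 69.5 and 68.6 CPM against 49.2 and 38.2 CPM with siNT1 (0.67 ± 0.17, adjusted p = 0.0485). Its siNT1 libraries were the lowest, as mock was at 65.4 and 50.8 CPM and siCAG at 67.0 and 68.3 CPM. The canonical 3′ UTR of ERAP1 holds 1 CGACTA and its longest annotated 3′ UTR holds 0. The part of that match in this was not tested. With siCAG in HeyA8 TAP1, the peptide transporter subunit whose gene overlaps PSMB9 on the opposite strand, was the 1 gene called. It was at 15.6 and 18.9 CPM against 4.73 and 4.54 CPM with siNT1 (1.88 ± 0.36, adjusted p = 0.0328). TAP1 was also the only list gene called in the difference between lines, for siCAG, by -2.13 ± 0.40 (adjusted p = 0.0458), PC3 minus HeyA8. With siCAG in PC3, with siGGGGGC in HeyA8, in both comparisons of siNT1 with mock and in both comparisons of time, no gene of any of the 4 lists was called.

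Between the mock libraries of the lines, 3 of the 9 associated genes were lower in PC3 and none higher, where 22% and 29% of all genes were called lower and higher, namely KIAA0368 (-1.51 ± 0.22, adjusted p = 0.00021), POMP, the maturation factor of the 20S core (-1.30 ± 0.26, adjusted p = 0.00187), and AKIRIN2 (-0.86 ± 0.24, adjusted p = 0.0113). Of the NRF1 pathway NFE2L2 (-1.08) and DDI2 (-0.93) were lower and NGLY1 (0.66) higher. Of the 12 ubiquitin genes and shuttles 3 were lower and 2 higher, with UBA1, the ubiquitin-activating enzyme, at 1.34 and UBQLN1 at -1.28 at the extremes. Of the antigen presentation genes TAP1 (2.81 ± 0.30, adjusted p = 2.28e-05) and TAPBP (0.71 ± 0.25, adjusted p = 0.0339) were higher in PC3, and NLRC5, TAP2 and HLA-E were lower. NLRC5, the transactivator of class I genes, was at 1.91 and 1.63 CPM in PC3 and 9.14 and 6.78 CPM in HeyA8 on each line's own scaling.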

How the data were processed

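The deposited values are raw counts of reads per gene, made by the authors. Per the study's methods and the labels, paired-end reads of rRNA-depleted total RNA were trimmed with Trimmomatic, aligned to hg38 (TopHat or STAR in the methods, STAR in the labels) and counted over exons with HTSeq on Ensembl genes. Strand use in the counting is not given in the sources used here. The deposited length column (other) was not used for tests.

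Here counts were filtered with filterByExpr, scaled by TMM and tested with edgeR 4.0.16 in R 4.3.3 by the quasi-likelihood F test with siRNA and time as terms, on the 8 libraries of a line. Differences between lines used all 16 libraries. P-values were adjusted by Benjamini-Hochberg over all genes tested, with a threshold of 0.05. Single-time log2 differences used a prior count of 2. DESeq2 1.42.0, RLE scaling, other filters, other sets of libraries, mock as the control and leaving out each library were the alternatives. The members and lists were chosen with earlier results of these data known. Named were, per comparison, up to 5 called members with the largest and 5 with the smallest log2 fold change, or the 3 with the smallest p where none was called. The 6 catalytic and immunoproteasome genes and the called genes of the 4 lists were named, except for some results that are not reported here, and further members were named after their values were seen. At 27937092 to 31790209 counts a library, counting error was small except for PSMB9. 3 members (PSMB3, PSMB8, PSMB9) are listed on alternate contigs in the deposited file. Numbers of replicates are time points, so the term for time is the replicate block. Deviations at 48 h against 24 h correlated between treatments of a line from -0.02 to 0.49. The fits were tested on simulated data, and no result above rests on that.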

Additional observations from a re-analysis of the deposited data

How the results depend on the processing

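The replicate numbers are the time points, and the term for time in all fits is the replicate block. Without the replicate block, 1 member in place of 9 was called with siGGGGGC in PC3 (PSMB2), and no other count of members moved by over 1.5 times. The labels link the samples of a block only by time. Not every pair of treatments deviated together, which cannot show whether libraries of a time shared a preparation. No member called in the comparisons with siNT1 or of the mock libraries changed direction in any setting. The list genes were not refitted under the alternatives. Against siNT1 in PC3, siGGGGGC gave 14 members with DESeq2 (1684 genes lower and 1135 higher of 15136). It gave 0 with the 4 libraries of both conditions (363 and 75 of 14648) and 0 with 16 libraries (240 and 93 of 15887). With the 6 libraries without siCAG, a setting chosen after seeing the data, it gave 3 (874 and 327 of 14932). siCAG in PC3 gave 1 with DESeq2 (458 genes lower and 114 higher of 15136), 1 without a filter on low counts (235 and 22 of 20684) and 1 with 4 libraries (1624 and 722 of 14669). siCAG in HeyA8 gave 9 with DESeq2 (1507 genes lower and 1150 higher of 13872), 0 with 4 libraries (432 and 148 of 13466) and 8 with 16 (1301 and 2028 of 15887). siNT1 against mock in HeyA8 gave 1 with 4 libraries (671 genes lower and 903 higher of 13298), and the siCAG difference between lines 2 with DESeq2 (332 and 339 of 15887). Mock against mock gave 31 with the 4 mock libraries (5377 and 5731 of 14827). Time in HeyA8 gave 2 with the 4 control libraries, PSMB2 lower and PSMB6 higher (899 and 692 of 13298). In each case the cause was not tested. Medians of members that moved were those of siGGGGGC in PC3 at 48 h alone (0.44), siGGGGGC in HeyA8 at 24 h alone (0.0464), siCAG in PC3 with 16 libraries (0.10) or with mock as the control (0.11), siNT1 against mock in HeyA8 at 24 h alone (0.0494), and mock against mock with a CPM over 1 in every library (-0.25) or with siNT1 in place of mock (-0.41).

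With each library left out in turn, calls of members ranged from 0 to 18 for siGGGGGC in PC3, from 0 to 21 for siCAG in HeyA8, from 0 to 3 for the siCAG difference between lines and from 7 to 11 for mock against mock, and were 0 throughout in the other comparisons so treated. The lone remaining sample was assumed to vary like the other groups. Medians ranged from 0.33 to 0.43 for siGGGGGC in PC3, 0.0099 to 0.1392 for siGGGGGC in HeyA8, 0.0317 to 0.1276 for siCAG in PC3, -0.39 to 0.17 for siCAG in HeyA8, -0.0385 to 0.0213 for siNT1 against mock in PC3, -0.0143 to 0.1062 for the same in HeyA8, 0.19 to 0.43 and -0.20 to 0.36 for the differences between lines with siGGGGGC and siCAG, and -0.36 to -0.23 for mock against mock. Depth limits PSMB9, which had 13 to 124 counts a library.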
